A study of Mus musculus with 6 samples.

Results

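The genes described here encode FSP1 and DHODH, which reduce coenzyme Q, and the enzymes that make it. The 10 genes, *Aifm2*, *Dhodh*, *Pdss1*, *Coq2*, *Coq3*, *Coq4*, *Coq5*, *Coq6*, *Coq7* and *Coq9*, were picked out by symbol as a pathway, and all 10 were found among the 19078 genes of the table. The table compares 3 RNAseq libraries of *Ms4a15* OE cells with 3 libraries of control cells, both from immortalized mouse fibroblasts (MF) for which the labels name no treatment. *Ms4a15* OE cells are a pool, not a clone, which hold a CRISPR activation system and 1 guide that recruits it to the promoter of *Ms4a15*. The genotype of control cells is labelled wild type, whereas the methods of the study describe control cells infected with empty lentivirus, and the cell line in both groups carries a *Gpx4* gene that can be deleted by a tamoxifen-activated Cre (Cre-ERt2). The labels do not say whether the 3 libraries of a group came from separate cultures, so the spread between them may be only technical. The errors given below come from the authors' DESeq2 fit to these libraries and are not a direct measure of that spread. For each gene the table gives a mean normalized count over the 6 libraries, a log2 fold change (positive where *Ms4a15* OE was higher) and the standard error (SE) of that change. No value of a single library was used here.

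Coenzyme Q is a lipid with a redox-active ring and a long isoprenoid tail. It carries electrons in the mitochondrial inner membrane and, in its reduced form, traps lipid radicals in membranes. FSP1, the product of *Aifm2*, reduces coenzyme Q at the plasma membrane and lipid droplets with NAD(P)H, and DHODH, the enzyme of pyrimidine synthesis in the inner membrane, reduces it there while oxidizing dihydroorotate. Both reactions limit lipid peroxidation beside GPX4, which is why these genes are read in cells that resist ferroptosis. The tail is built by a synthase that holds PDSS1, and COQ2 joins it to the ring. COQ3 to COQ7 then modify the ring in a complex that also holds COQ9, on the matrix side of the inner membrane.

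The guide that distinguishes the groups is shown because it fixes which gene was activated. It matches GRCm38 at chr19:10993361-10993380 on the minus strand, where its first base is at position -130 from the start of *Ms4a15*. The capitals mark the PAM that follows the guide on the genome.

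Ms4a15 OE guide: aaagactgaagcaagggactGGG

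*Ms4a15* itself had an implied mean of 1275 normalized counts in OE cells against 0.174 in control cells, at least 425-fold higher when control is set to a floor of 3 counts. Promoters of 8 of the 10 genes, all but *Dhodh* and *Coq5*, were found in the RefSeq table for GRCm38 (250 bases before to 50 after the start). Within these windows the nearest match to the guide beside an NGG PAM had 8 mismatches, in *Coq4*, and the others had 9 to 11, against a median of 10 over 27025 gene symbols. *Ms4a15* was the only symbol with a perfect match, and 0 symbols had 1 to 3 mismatches.

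Among all genes, 8187 of 19078 passed an adjusted p of 0.05 (Wald test, Benjamini-Hochberg adjustment over the table), which is 42.9%. Of the 3842 genes whose mean lay in the range of the 10 genes (386 to 1780 normalized counts), 64.2% passed. Fibroblast markers were present, since *Vim* (112480 normalized counts implied in *Ms4a15* OE, 117789 in control) and *Fn1* (112230 and 116256) were among the highest genes of the table. Of 10 fibroblast markers 3 were higher, 4 were lower and 3 did not pass. On the log2 scale *Col1a1* fell by 4.50 and *Pdgfrb* fell by 3.83, whereas *Dcn* rose by 5.24 and *Thy1* by 0.69. The level of *Dcn* was low, with 23.6 normalized counts implied in OE cells against 0.624 in control cells. The other higher marker was *Pdgfra*. The summed implied level of these 10 markers was 275374 normalized counts in OE cells against 602925 in control cells. Most of that fall came from *Col1a1* and *Col1a2*. Of 5 myeloid and leukocyte markers 2 were higher, led by *Lyz2* (log2 fold change 4.65), and their summed level was 1320 against 136. Of 4 endothelial markers 2 were higher (summed level 214 against 33.7) and of 6 epithelial markers 1 was (23.1 against 6.88). *Epcam*, *Cdh1*, *Krt18*, *Krt19* and *Cldn4* as well as *Kdr*, *Tie1* and *Lum* had means under 3 normalized counts, and the part of these shifts in the values below was not tested.

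Of the 10 genes, 6 passed the threshold, 2 of them higher and 4 lower in *Ms4a15* OE, beside 42.9% of all genes (21.5% higher, 21.5% lower) and 64.2% of genes of like mean (29.4% higher, 34.7% lower). The share of the 10 genes called is thus close to that of genes of like mean. *Coq4* and *Coq6* were higher, *Dhodh*, *Coq2*, *Coq3* and *Coq9* were lower, and *Aifm2*, *Pdss1*, *Coq5* and *Coq7* did not pass. The 10 log2 fold changes ran from -0.76 to 0.58 with a median of -0.06. The median was -0.02 for the genes of like mean and 0.04 for all genes. None of the 10 genes changed by 2-fold. In bulk RNA, fewer transcripts per cell and fewer cells that make them cannot be told apart. RNA levels do not give the amount of coenzyme Q, for which the study reports negligible change in its metabolomics of *Ms4a15* OE cells. The mean counts behind these values are high enough that counting error made up 25.2% to 36.2% of the variance that the SE implies.

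**Figure D1:**
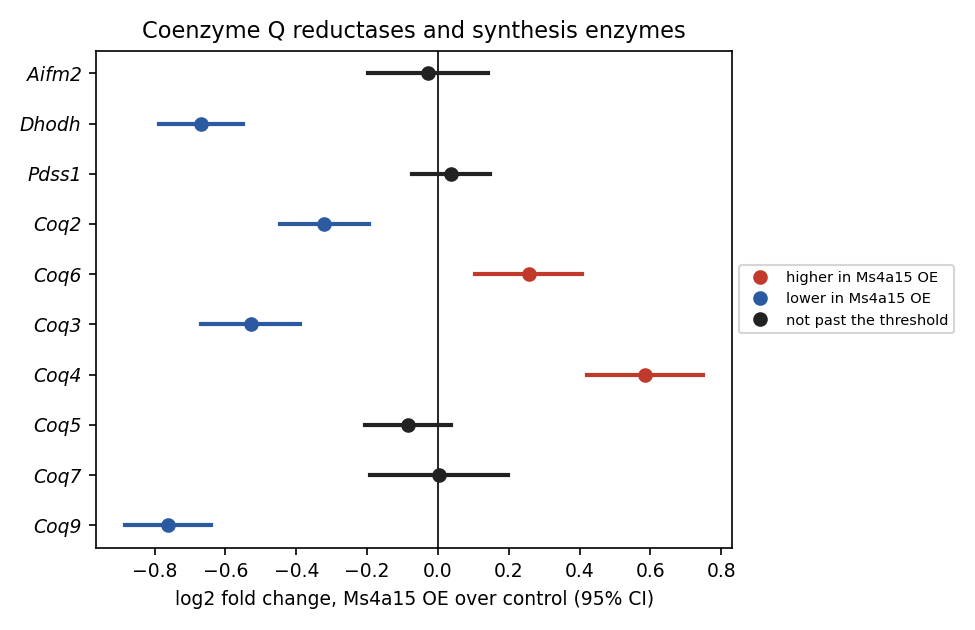
Log2 fold change (x axis, *Ms4a15* OE over control) for each of the 10 genes, in the order of their roles, with points for the estimate and bars for the 95% confidence interval (3 libraries per group). Intervals of *Dhodh*, *Coq2*, *Coq3* and *Coq9* lie below 0, those of *Coq4* and *Coq6* above it, and those of *Aifm2*, *Pdss1*, *Coq5* and *Coq7* span it.

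*Aifm2* encodes FSP1, the reductase that gives the pathway its name in ferroptosis. Its implied mean was 685 normalized counts in OE cells against 699 in control cells. The log2 fold change was -0.03 (SE 0.09, 95% interval -0.20 to 0.14, adjusted p = 0.886, Wald test). The interval spans folds of 0.871 to 1.10, and a log2 change of 0.20 would have been called at this SE. *Aifm2* lies at chr10:61715263-61739260 on the plus strand of GRCm38, in a region where the 20 located genes on each side had a median log2 fold change of 0.05. A difference in *Aifm2* RNA within that interval was not detectable with these libraries.

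*Dhodh*, whose product passes electrons from dihydroorotate to coenzyme Q, was lower. Its implied mean was 1081 normalized counts against 1719 in control, which is 1.59-fold lower (log2 fold change -0.67, SE 0.06, adjusted p = 2.36e-27, Wald test). It ranked below most genes of like mean, of which 8.04% had a lower log2 fold change. *Dhodh* lies at chr8:109591343-109608673 on the minus strand. Chromosome 8 had the lowest median of 20 chromosomes, -0.38 over 546 genes, and 78.4% of its genes were called lower. Of the 40 neighbours of *Dhodh*, 31 were called lower and 2 higher, with a median of -0.42. Against that median *Dhodh* was still lower, by a log2 difference of -0.25 (95% interval -0.36 to -0.13, adjusted p = 0.000177), though 10 of the 40 neighbours were lower still.

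The first steps of coenzyme Q synthesis make the tail and join it to the ring. *Pdss1*, a subunit of the synthase for the tail, had the highest mean of the 10 genes, with 1803 normalized counts implied in *Ms4a15* OE and 1758 in control. Its log2 fold change was 0.04 (SE 0.06, 95% interval -0.07 to 0.15, adjusted p = 0.707). *Coq2*, the prenyltransferase that attaches the tail, was 1.25-fold lower, with 1036 against 1294 normalized counts (log2 fold change -0.32, SE 0.06, adjusted p = 2.30e-06). *Coq2* lies at chr5:100654723-100675140, on a chromosome with a median of -0.17, and its own 40 neighbours had a median of -0.21. After that median was subtracted *Coq2* no longer passed (-0.11, 95% interval -0.24 to 0.01, adjusted p = 0.142).

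Among the enzymes that modify the ring, 2 were higher. *Coq4*, which removes a carboxyl group from the ring and helps hold the complex together, showed the largest rise of the 10 genes. It had 822 normalized counts implied in *Ms4a15* OE and 548 in control, 1.5-fold higher (log2 fold change 0.58, SE 0.08, adjusted p = 1.84e-11). Its neighbours on chr2 had a median of 0.04, and 39 of 40 had a lower log2 fold change than *Coq4*. *Coq4* (chr2:29787493-29797935, plus strand) shares 1010 bases with *Trub2* on the opposite strand, of which 921 are exonic in *Coq4*, 27.1% of its exons. *Trub2*, a pseudouridine synthase, was itself higher by 0.27 on the log2 scale (adjusted p = 2.72e-06). The libraries were stranded, but whether strand was used in counting is not given in the sources used here, and the part of shared reads in the rise of *Coq4* was not tested.

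*Coq6*, the monooxygenase that hydroxylates the ring with electrons from ferredoxin, was 1.19-fold higher, with 832 against 697 normalized counts (log2 fold change 0.26, SE 0.08, adjusted p = 0.00253). It lies at chr12:84361657-84373796, where the neighbour median was 0.08, and the rise over that median was 0.18 (95% interval 0.03 to 0.33, adjusted p = 0.0481). Of the 40 neighbours, 28 had a lower log2 fold change than *Coq6*. With 10 neighbours on each side the median was 0.15, inside the 95% interval of *Coq6* itself (0.11 to 0.41). The rise over these nearer neighbours was not tested. Of the changes called, that of *Coq6* was the smallest.

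*Coq3*, the methyltransferase that adds methyl groups to ring oxygens, was 1.44-fold lower, with 720 normalized counts implied in *Ms4a15* OE and 1038 in control (log2 fold change -0.53, SE 0.07, adjusted p = 9.61e-13). It lies at chr4:21879673-21912162 on the plus strand. The whole chromosome had a median of -0.02, but the 40 neighbours of *Coq3* had a median of -0.34, and 26 of them were called lower and 8 higher. Against those neighbours *Coq3* was lower by a log2 difference of -0.19 (95% interval -0.33 to -0.05, adjusted p = 0.0204), and 7 of the 40 were lower still. With 10 neighbours on each side the median was -0.44, inside the 95% interval of *Coq3* itself (-0.67 to -0.39). Whether *Coq3* was lower than these nearer neighbours was not tested.

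*Coq5*, the methyltransferase that adds a methyl group to a ring carbon, did not pass, with 1343 against 1424 normalized counts (log2 fold change -0.08, SE 0.06, adjusted p = 0.304). It lies at chr5:115279666-115296972, where 33 of 40 neighbours were called lower and the median was -0.34. Relative to that median *Coq5* was higher by 0.25 (95% interval 0.13 to 0.37, adjusted p = 0.000159), and 36 of the 40 neighbours had a lower log2 fold change. *Coq2* and *Coq5* thus both lie on chromosome 5 in regions with medians under 0, at -0.11 and 0.25 from these medians, and only the latter value passed.

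COQ7 and COQ9 act at the same step, since COQ9 binds the lipid substrate and presents it to the hydroxylase COQ7. Of these partners only *Coq9* passed. *Coq7*, the gene with the lowest mean of the 10, had 387 normalized counts implied in *Ms4a15* OE and 386 in control (log2 fold change 0.00, SE 0.10, 95% interval -0.19 to 0.20, adjusted p = 0.985). *Coq9* had 1046 and 1774, and was 1.70-fold lower (log2 fold change -0.76, SE 0.06, 95% interval -0.88 to -0.64, adjusted p = 2.22e-33), the largest fall of the 10 genes. The 2 intervals do not overlap. Once neighbour medians are subtracted they share a narrow range (-0.204 to 0.186 for *Coq7*, -0.440 to -0.196 for *Coq9*). The difference between the 2 genes was not tested, and overlap of intervals does not decide it. Like *Dhodh*, *Coq9* lies on chromosome 8 (chr8:94838321-94854895, plus strand), and 30 of its 40 neighbours were called lower, with a median of -0.44. It was lower than that median by a log2 difference of -0.32 (95% interval -0.44 to -0.20, adjusted p = 1.39e-06), and 8 of the 40 neighbours were lower still. *Ciapin1*, which meets *Coq9* head to head with 38 shared bases and encodes an iron-sulfur protein assembly factor, fell by 0.62 (adjusted p = 4.41e-29).

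**Figure D2:**
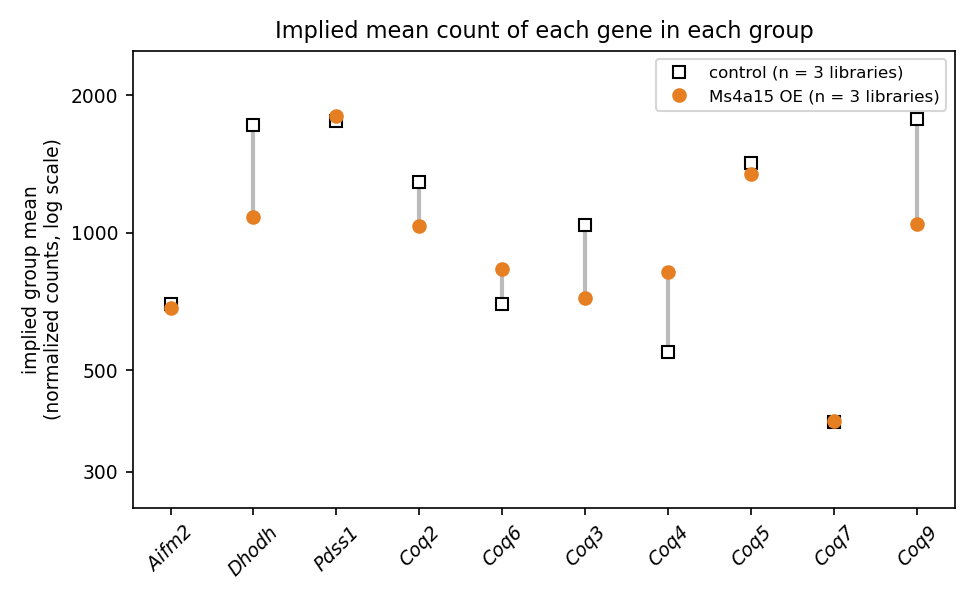
Implied mean normalized count (y axis, log scale) in control (open squares) and *Ms4a15* OE (filled circles) for each of the 10 genes, joined by a line (3 libraries per group, no values of single libraries). The longest lines are those of *Coq9* (1774 to 1046) and *Dhodh* (1719 to 1081), and the symbols of *Coq7* lie on each other.

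Leaving out the 2 genes on chromosome 8, 2 of the other 8 were higher, 2 were lower and 4 did not pass, with a median of -0.01. With neighbour medians subtracted, 45.1% of 16131 genes were called (23.8% higher, 21.4% lower), and 6 of the 10 genes again passed, though not the same 6. *Dhodh*, *Coq3* and *Coq9* were lower, *Coq4*, *Coq5* and *Coq6* were higher, and *Coq2* was replaced by *Coq5*. Tested against a change of 1.2-fold in place of no change, 18.8% of all genes passed (9.43% higher, 9.39% lower). So did 4 of the 10, of which *Coq4* was higher (adjusted p = 0.000883) and *Dhodh* (adjusted p = 2.48e-10), *Coq9* and *Coq3* (adjusted p = 0.00145) were lower. Why neighbouring genes shared a direction was not tested.

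**Figure D3:**
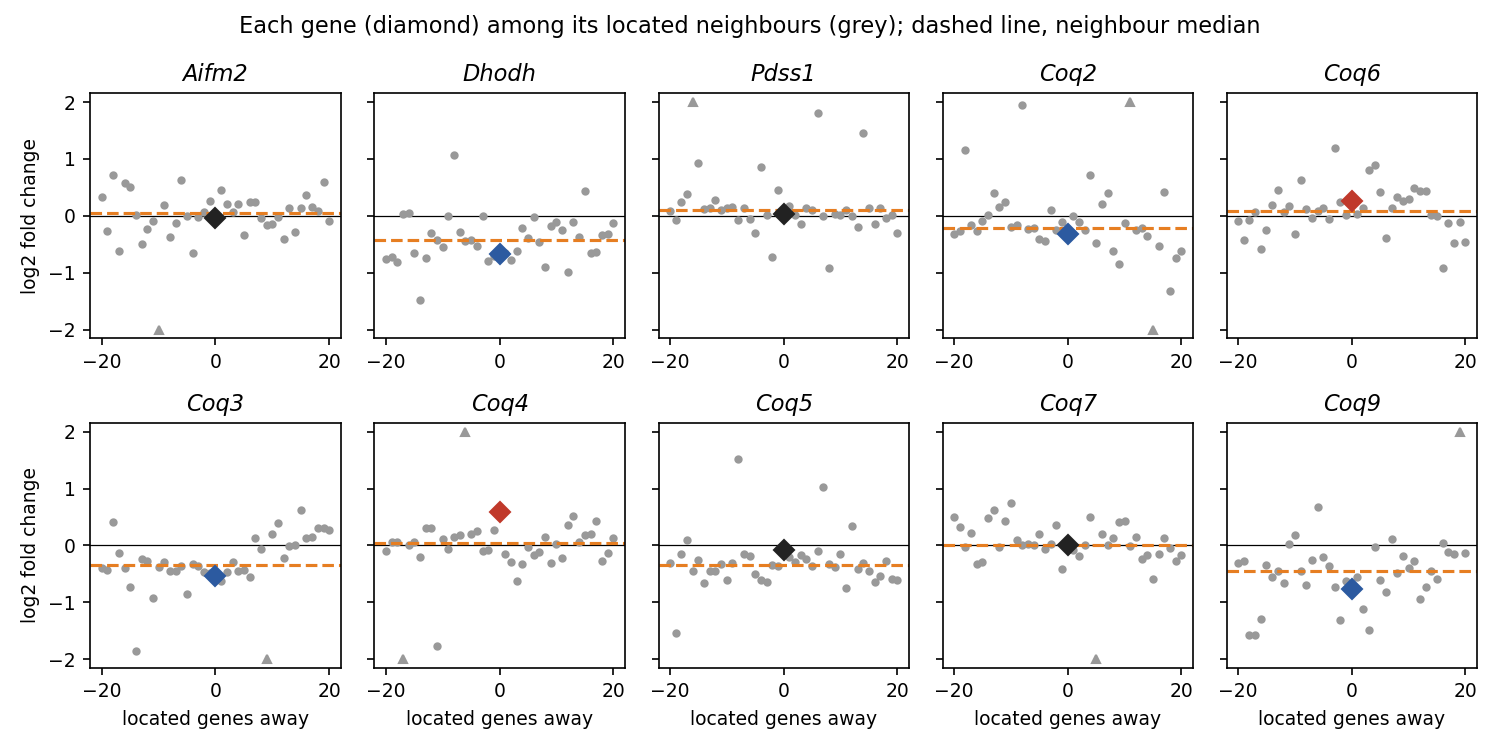
Log2 fold change (y axis, cut at 2 and -2, where triangles mark genes beyond) of each of the 10 genes (diamond) and of 20 located genes on each side of it (grey), against position in genes (x axis). Dashed lines mark the neighbour medians, which were -0.42 for *Dhodh* and -0.44 for *Coq9*, and *Coq4* lies above 39 of its 40 neighbours.

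Levels between genes can be compared only per length. Over the exonic length of each gene, the mean normalized count per kilobase was highest for *Coq9* (461), *Coq5* (456), *Coq2* (444) and *Pdss1* (419). It was lower for *Coq3* (293), *Coq6* (243), *Dhodh* (221), *Coq4* (202) and *Aifm2* (168), and lowest for *Coq7* (60.1). Exonic length joins all annotated transcripts of a gene, which gives 6.43 kilobases for *Coq7* and 2.62 for *Coq2*, and which of these transcripts the cells used was not tested.

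The promoters of the 8 genes in the RefSeq table, which include 5 of the 6 called genes but not *Dhodh*, were read for the recognition sequences of 6 regulators linked to mitochondrial, antioxidant or sterol genes, on both strands. The motifs were those of NRF1, ETS (CCGGAAG), YY1 (AAGATGGC), the antioxidant response element (TGACNNNGC), ERR (TCAAGGTCA) and SREBP (TCACNCCAC). The runs below, from RefSeq windows of GRCm38, hold the matches in genes that were called, with the motif in capitals.

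Coq9 antioxidant response element: cactgacgcgTGACGCTGCccggcgcgtcg

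Coq9 YY1: tgcccacttccAAGATGGCggcgacagcag

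Coq4 SREBP: ccacgtgaccTCACTCCACatcagaaagaa

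Coq3 NRF1: gggcggctctGCGCAAGCGCggcagagagc

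Coq6 ETS: tgacgactgccCCGGAAGcactttccagga

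The runs of *Coq9* lie at chr8:94838358-94838387 and chr8:94838408-94838437, that of *Coq4* at chr2:29787436-29787465, that of *Coq3* at chr4:21879843-21879872 and that of *Coq6* at chr12:84361976-84362005, all on the plus strand. The window of *Coq4* belongs to its outermost annotated start, and other transcripts of the gene start farther downstream. Among the 5 called genes whose promoters were read, no motif was found in more than 1, and *Coq2* held none of the 6. ETS was the only motif in 2 of the 8 genes, *Coq6* and *Pdss1*, and 8.86% of 32851 promoters hold it. The antioxidant response element occurs in 12.4%, NRF1 in 4.60%, YY1 in 2.75%, SREBP in 1.24% and ERR, which no promoter of the 8 genes held, in 0.423%. These matches are letters in a window and say nothing about binding.

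Genes around the pathway were described with 5 lists, in which 49 genes of 50 were found. Of these, 18 were higher, 12 were lower and 19 did not pass, so that 30 of 49 were called. Beside this, 42.9% of all genes were called (21.5% higher, 21.5% lower). Of the 10440 genes with a mean of 100 normalized counts or more, 65.6% were called, 3207 higher and 3641 lower. The share of the lists is thus near that of genes of this level.

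Coenzyme Q takes its tail from the mevalonate pathway, which also feeds cholesterol. Of its 9 genes, 7 were lower, 0 were higher and 2 (*Hmgcs1* and *Ggps1*) did not pass, with a median log2 fold change of -0.30. Of all genes 21.5% were called lower. Of the 10440 genes with a mean of 100 normalized counts or more, 3641 were. *Mvd*, which makes isopentenyl diphosphate, had 574 normalized counts implied in *Ms4a15* OE and 1202 in control, and was 2.09-fold lower (log2 fold change -1.07, SE 0.09, adjusted p = 2.52e-34). *Pmvk*, the kinase before it, was 1.84-fold lower and *Fdps*, which makes farnesyl diphosphate, 1.63-fold lower (5467 against 8916 normalized counts). *Mvk*, mevalonate kinase, was 1.57-fold lower. *Mvd* lies on chromosome 8, *Pmvk* and *Fdps* on chromosome 3 (median -0.35) and *Mvk* on chromosome 5. After the neighbour medians were subtracted, these 4 remained lower, at -0.64, -0.57, -0.32 and -0.42. With that subtraction 7 of the 9 genes were called lower again, beside 21.4% of 16131 genes.

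The list of other genes for coenzyme Q synthesis and handling held 11 found genes. Of these 5 were higher, 2 were lower and 4 did not pass (median 0.28), beside 21.5% of all genes in each direction. *Hpdl*, which makes a precursor of the ring, was 3.43-fold higher, with 85.6 against 25.0 normalized counts (log2 fold change 1.78, SE 0.28, adjusted p = 1.13e-09). *Oma1*, a protease of the inner membrane, was 1.81-fold higher. *Coq8b*, listed under its older symbol *Adck4* and encoding an atypical kinase of the complex, was 1.68-fold lower (log2 fold change -0.75, SE 0.14, adjusted p = 5.16e-07). *Coq10b*, which encodes a coenzyme Q binding protein, was 1.19-fold lower. The other 3 higher genes were *Parl*, *Fdx1* and *Stard7*.

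Of 10 relatives of FSP1, other quinone reductases and N-myristoyltransferases, 5 were higher, 0 were lower and 5 did not pass (median 0.21). The median includes *Aifm3*, which did not pass and had a mean under 3 normalized counts. Among all genes 21.5% were called in each direction. Of the 10440 genes with a mean of 100 normalized counts or more, 3207 were called higher. *Nqo1*, a cytosolic quinone reductase, was 2.10-fold higher, at 12019 normalized counts implied in *Ms4a15* OE and 5718 in control (log2 fold change 1.07, SE 0.04, adjusted p = 3.98e-159). It also lies on chromosome 8, among neighbours with a median of -0.47, and exceeded them by 1.54. *Nqo2*, its paralog, was 1.64-fold higher. *Nmt2* was 1.92-fold and *Nmt1* 1.22-fold higher, and these enzymes add the myristoyl group that anchors FSP1 to membranes. The log2 fold change of *Aifm2*, -0.03, lay near those of *Cyb5r1*, *Cyb5r3*, *Vkorc1* and *Vkorc1l1*, which ran from -0.0033 to 0.06 and did not pass either. With neighbour medians subtracted *Cyb5r1* was higher (0.35), while *Aifm2* and the other 3 did not pass.

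Of 11 other enzymes that feed electrons to coenzyme Q in mitochondria, 6 were higher, 1 was lower and 4 did not pass (median 0.12). The median includes *Chdh*, which did not pass and had a mean under 3 normalized counts. The share over all genes was 21.5% in each direction. *Sqor*, listed as *Sqrdl* and oxidizing hydrogen sulfide, was 2.86-fold higher, with 1772 against 621 normalized counts (log2 fold change 1.51, SE 0.07, adjusted p = 1.24e-109). *Etfb*, a subunit of the flavoprotein that carries electrons from fatty acid oxidation, was 1.25-fold higher and *Prodh*, which oxidizes proline, 1.37-fold higher. *Etfdh*, which passes electrons from that flavoprotein to coenzyme Q, was 1.21-fold lower, but exceeded its neighbours on chromosome 3 by 0.23.

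In the pyrimidine pathway that holds DHODH, 2 of 8 genes were higher, 2 were lower and 4 did not pass (median -0.03). These counts are near the 21.5% of all genes called in each direction. *Cad*, which carries out the steps before DHODH, was 1.37-fold lower, with 11067 against 15109 normalized counts (log2 fold change -0.45, SE 0.04, adjusted p = 1.89e-23). *Umps*, which carries out the steps after it, was 1.08-fold higher (adjusted p = 0.0172), and no longer passed with its neighbour median subtracted (log2 difference 0.085, adjusted p = 0.0629). *Uck1*, a uridine kinase, was 1.10-fold lower and *Ctps2*, a CTP synthase, 1.24-fold higher.

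**Figure D4:**
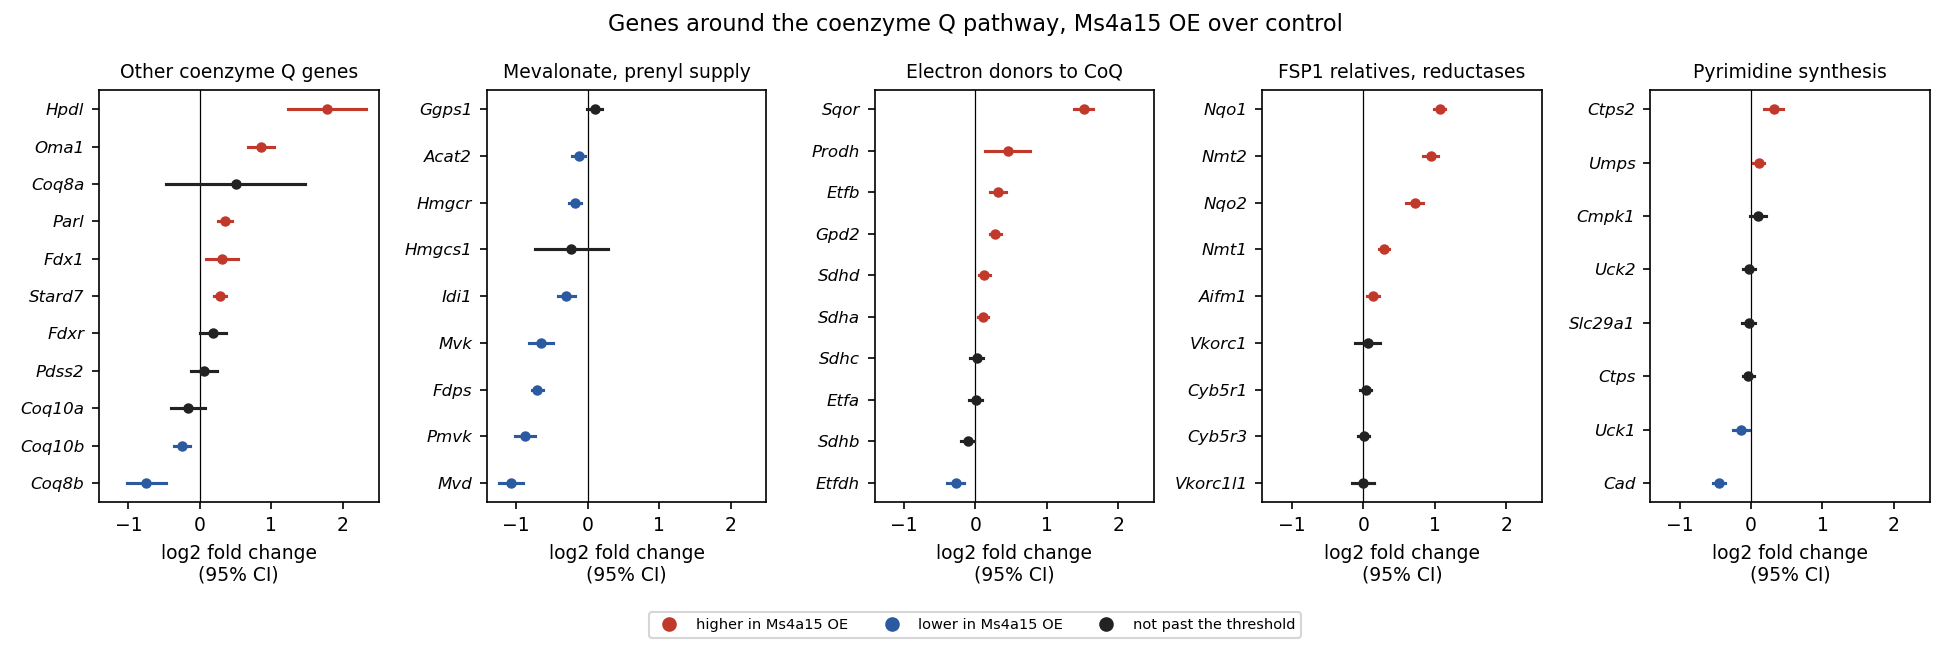
Log2 fold change (x axis, *Ms4a15* OE over control, 95% confidence interval) for the genes of the 5 lists around the pathway, leaving out those with a mean under 10 normalized counts, 1 panel per list (3 libraries per group). In the mevalonate panel 7 of 9 genes lie to the left of 0 and pass, whereas in the panel of FSP1 relatives and reductases the 5 that pass lie to the right.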

How the data were processed

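RNAseq of poly(A)-selected, stranded libraries was performed by the authors on 3 *Ms4a15* OE and 3 control libraries. The methods name STAR in two-pass mode, the assembly mm10, UCSC knownGene, HTSeq-count and DESeq2, whereas the submitters' processing notes also name TopHat, Cufflinks and Cuffdiff. The deposited table is the authors' own DESeq2 comparison. Its signal column holds counts divided by size factors and averaged over 6 libraries, and its fold changes and their standard errors are deposited on the log2 scale. Further columns of the table, the authors' p-value, adjusted p-value and direction, were not used. Depth per library is unknown, and no SD or permutation test between libraries could be computed.

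From each log2 fold change and standard error a two-sided Wald p was recomputed and adjusted by Benjamini-Hochberg over 19078 genes, with 95% intervals as 1.96 standard errors. Group means were implied from the mean and the fold change with equal group sizes. Neighbours were the 20 nearest genes on each side with a mean of at least 100, located in GENCODE M21 (GRCm38, the same assembly as mm10), in which 16132 genes were found by symbol. The median of the neighbours was treated as free of error. The rule for the 10 genes uses symbols and no measured value, but the genes, the lists and the tests were chosen with earlier results of these data known. All 10 genes, *Ms4a15* and the markers could be named, and values were given for up to 4 called genes of each list, those with the largest change in each direction. The Wald test and its adjustment were tested on simulated data, drawn from a normal distribution with the deposited standard errors as that test assumes. The subtraction of neighbour medians was not tested in this way. Python 3.11.15, numpy 2.4.6, pandas 2.3.3, scipy 1.17.1 and matplotlib 3.10.9 were used.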

Additional observations from a re-analysis of the deposited data

How the results depend on the processing

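No paired analysis was possible because the table holds no values of single libraries, and for the same reason leaving out each replicate was not run. Of the 10 genes, 6 passed, and 0 did so once a change of at least 1 on the log2 scale was required. Under that minimum the genes called fell from 8187 to 1944 of all genes and from 30 to 4 of the 5 lists. Against a 1.2-fold change, 3591 of all genes and 12 of the lists were called, and *Coq2* and *Coq6* no longer passed. Subtraction of the neighbour median turned the direction of *Pdss1* (-0.065), *Coq7* (-0.0090) and *Coq5* (0.25), of which only *Coq5* then passed, and *Coq2* no longer passed (-0.11). It set the split of the 10 genes at 3 higher and 3 lower. Of 4093 higher and 4094 lower calls among all genes, centring on the median of -0.02 gave 4277 and 3897. The calls of *Aifm2*, *Dhodh*, *Coq3*, *Coq4* and *Coq9* were the same under all alternatives of scaling, adjustment and null hypothesis. With 10 neighbours on each side in place of 20, the median around *Coq3* was -0.44 and that around *Pdss1* 0.02.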
